A study of Mus musculus with 12 samples.

Results

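Proteasome genes were taken as the rows of the expression table whose gene name was Psma, Psmb, Psmc, Psmd or Psme followed by a number, with names ending in -ps left out. This gave 42 of the 43686 rows. They comprised 13 core subunits, 16 subunits of the regulatory particle, 5 immunoproteasome genes (Psmb8, Psmb9, Psmb10, Psme1 and Psme2), 3 chaperones of regulatory base assembly, 2 other activators, 2 core subunits restricted to other tissues, and Psmc3ip, which the name pattern also matched but which encodes a meiotic recombination protein. No row was named Psmb5 or Psmd2, so neither is among the 42. Psmb5 was not analysed here, and a row described as Psmd2 is given separately with the regulatory base.

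The proteasome degrades ubiquitin-tagged proteins. Its core particle is a barrel of outer alpha rings, which gate the entry channel, and inner beta rings, which hold the catalytic subunits. A regulatory particle docks on the barrel; its base unfolds substrates with a ring of ATPases, and its lid removes ubiquitin. Interferon-induced catalytic subunits can replace the constitutive ones to form the immunoproteasome, which shapes the peptides presented on major histocompatibility complex class I molecules. In heart muscle the proteasome turns over sarcomeric and metabolic proteins.

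The study deleted Sdhaf4, an assembly factor of succinate dehydrogenase (mitochondrial complex II), and sequenced poly-A-selected RNA from the ventricular wall. The WT group (6 libraries) was labelled wild type, and by the study's methods its mice were Sdhaf4 fl/fl littermates without Cre. The KO group (6 libraries) was labelled Sdhaf4-/-, and the study describes the mutant as Sdhaf4 fl/fl with a Ckmm-Cre transgene, driven by the muscle creatine kinase promoter and active in both cardiac and skeletal muscle, so other cells of the heart keep the gene. Both groups were labelled C57BL/6 (C57BL/6J in the study's methods) with an age of 2 postnatal months, while the study's text gives a younger age for these hearts, and both carry the floxed alleles. Nothing in the labels ties a library to a separate animal, so p-values measure the spread between these libraries, which may be technical in part. Library totals were 23747014 to 27159228 counts in WT and 26542930 to 31393393 in KO. Sdhaf4 itself fell from 25.2 ± 5.80 CPM (counts per 1000000 counts of a library; SD, n = 6) to 2.40 ± 0.170, with no overlap between groups. WT6 was the lowest WT library for Sdhaf4, at 14.3 CPM. Cardiomyocyte markers summed to 60515 to 66063 CPM in WT and 50284 to 70036 CPM in KO, with KO3 the highest, and 5 of the 9 tested fell. Among the 5, Myl2 lost its call with trends on gene length and GC content removed (log2 fold change -0.15). Myh6, not among the 5, passed as lower in that fit (-0.28) and without KO3 (-0.29). Fibroblast markers summed to 1414 to 1616 CPM in WT and 2256 to 4111 CPM in KO; 7 of 8 rose and the other one, Dpt, fell (log2 fold change -0.46, edgeR adjusted p = 0.00135). Endothelial markers summed to 1428 to 1645 CPM in WT and 1661 to 1987 CPM in KO, also without overlap; 5 of 8 rose, with Vwf 2.11-fold higher, and Cldn5 fell (-0.78). Of these 5, Kdr lost its call without WT2, WT4, WT5, WT6, KO1, KO2, KO5 or KO6. It also lost it with the replicate number as a block and with trends on gene length, or on length and GC content, removed. Its values were 0.16 to 0.28 over all alternatives. For comparison with these marker counts, 25.6% of all rows tested rose and 25.5% fell. In bulk tissue, fewer cells of a type and less RNA per cell cannot be told apart.

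The proteasome genes did not move as a block. CPM here are read counts scaled to library sizes adjusted by TMM (trimmed mean of M-values), and a gene was said to rise or fall where edgeR's quasi-likelihood test over 17155 rows gave it an adjusted p below 0.05. Of the 41 proteasome genes tested, 6 rose in KO (14.6%) and 19 fell (46.3%), while 16 did not pass; over all rows tested, 25.6% rose and 25.5% fell. The median log2 fold change (KO over WT) of the 41 was -0.10, against 0.0022 over all rows. The range was wide, from -1.18 for Psme1 to 1.11 for Psmb10. At the stricter thresholds of an adjusted p under 0.005 and a log2 fold change beyond 1 in size, 1 gene rose (Psmb10) and 1 fell (Psme1), where 5.36% of all rows rose and 4.87% fell. Every KO library lay above every WT library for 5 of the 41 genes and below for 13, against 14.9% and 15.2% of all rows. Together the 42 genes held 0.416 to 0.438% of the counts of a WT library and 0.375 to 0.390% of those of a KO library, 2 ranges that did not overlap.

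The split of calls moved with 1 kind of correction. With the dependence of counts on gene length and on GC content taken out of every library, 9 of the 41 rose and 12 fell, while over all rows 3471 of 12517 rose and 3327 fell. With length alone taken out, 7 rose and 14 fell, while over all rows 4310 of 17155 rose and 4177 fell. More proteasome genes fell than rose under both corrections, by a smaller margin than without them. The calls that were lost lay in the core particle and in Psmd10, and are named with those genes below.

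**Figure D1:**
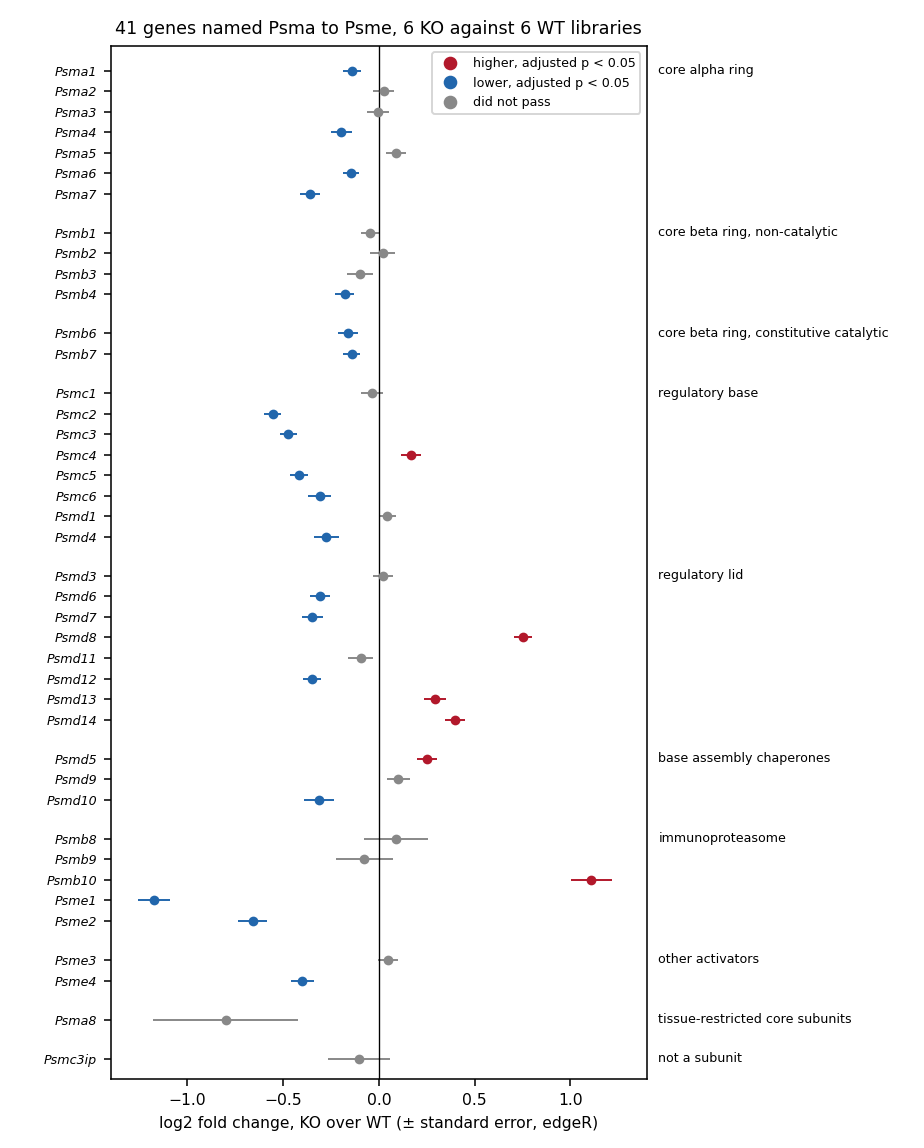
Log2 fold change, KO over WT, with its standard error from edgeR, for the 41 genes tested, grouped by their place in the proteasome. Red points rose and blue points fell at an adjusted p under 0.05. Psmb10 stands at 1.11 and Psme1 at -1.18, while the 13 core subunits lie between -0.36 and 0.09.

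The 5 immunoproteasome genes went apart. Psmb10, the inducible catalytic subunit that replaces Psmb7, rose 2.16-fold, and both subunits of the interferon-induced activator cap, Psme1 and Psme2, fell. Psmb8 and Psmb9, the other two inducible catalytic subunits, did not pass the test. The median log2 fold change of the 5 was -0.08, which is the value of Psmb9, and it moved to 0.0012 without WT6 and to -0.16 without WT5.

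The promoters of these 5 genes are shown because interferon acts on genes through elements near their start, and the 5 did not change alike. The windows run from 250 bases before to 50 bases after a RefSeq start on build GRCm38.p6, 5′ to 3′ on the gene's strand. Capitals mark matches, on either strand, to the core of the interferon-stimulated response element (GAAANNGAA), the core of the antioxidant response element (TGANNNNGC) or the CCAAT box (CCAAT).
Psmb8, chr17:34197945-34198244, plus strand: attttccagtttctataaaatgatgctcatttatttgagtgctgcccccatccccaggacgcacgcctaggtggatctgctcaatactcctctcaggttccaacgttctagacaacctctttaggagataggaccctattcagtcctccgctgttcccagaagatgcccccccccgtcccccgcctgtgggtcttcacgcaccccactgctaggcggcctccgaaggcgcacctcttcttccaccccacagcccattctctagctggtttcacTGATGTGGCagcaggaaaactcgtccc
Psmb9, chr17:34187281-34187580, minus strand: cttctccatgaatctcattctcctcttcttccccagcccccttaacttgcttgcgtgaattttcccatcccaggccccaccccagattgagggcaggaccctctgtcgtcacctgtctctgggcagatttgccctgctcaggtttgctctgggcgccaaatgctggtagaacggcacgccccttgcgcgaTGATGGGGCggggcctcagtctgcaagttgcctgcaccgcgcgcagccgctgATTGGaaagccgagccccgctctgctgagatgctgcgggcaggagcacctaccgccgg
Psmb10, chr8:105938343-105938642, minus strand: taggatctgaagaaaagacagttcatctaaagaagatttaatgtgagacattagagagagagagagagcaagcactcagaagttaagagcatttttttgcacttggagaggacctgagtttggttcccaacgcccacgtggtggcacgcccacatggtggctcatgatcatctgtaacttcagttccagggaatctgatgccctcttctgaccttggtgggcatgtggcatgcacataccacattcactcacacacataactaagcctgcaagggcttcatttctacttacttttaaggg
Psme1, chr14:55578244-55578543, plus strand: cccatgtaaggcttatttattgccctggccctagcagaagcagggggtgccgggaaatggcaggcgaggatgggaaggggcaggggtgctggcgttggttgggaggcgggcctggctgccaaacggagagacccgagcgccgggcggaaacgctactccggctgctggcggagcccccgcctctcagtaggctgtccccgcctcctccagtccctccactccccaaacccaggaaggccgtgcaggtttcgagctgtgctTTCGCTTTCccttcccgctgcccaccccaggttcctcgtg
Psme2, chr14:55591052-55591351, minus strand: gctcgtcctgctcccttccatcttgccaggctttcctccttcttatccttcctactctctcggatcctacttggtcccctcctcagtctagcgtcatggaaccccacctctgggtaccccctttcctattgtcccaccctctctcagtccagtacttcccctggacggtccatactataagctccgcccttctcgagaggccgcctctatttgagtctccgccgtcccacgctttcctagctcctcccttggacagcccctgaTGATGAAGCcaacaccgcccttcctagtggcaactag
The Psme1 window, of the gene that fell most, holds the interferon core as TTCGCTTTC, its reverse complement. This match begins at base 11 after the start, not upstream of it. The Psmb8, Psmb9 and Psme2 windows each hold the antioxidant core, and the Psmb9 window also has a CCAAT box. The Psmb10 window holds none of the 3 letter patterns, which says nothing about factors that may bind there or elsewhere. Over the 37 RefSeq promoters found for 34 of the tested genes, the interferon core was in 6 (16.2%; Psmb3, Psmb4, Psmc2, Psmd4, Psmd9 and Psme1), against 8.56% of 32851 promoters of the same length. The antioxidant core was in 22 (59.5% against 41.3%), its stricter form TGACNNNGC, which the core includes, in 5 (13.5% against 12.4%), and CCAAT in 14 (37.8% against 37.4%). These shares are descriptions of letters and were not tested.

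Psmb10 (MGP_C57BL6NJ_G0034562) lies on chromosome 8 at 112232507 to 112235171 of the C57BL/6NJ strain assembly. Its WT libraries ran from 38.8 to 49.8 CPM with a median of 43.2, and its KO libraries from 65.1 to 109.5 CPM with a median of 97.3. All 6 KO libraries were above all 6 WT libraries, with KO3 the lowest KO library and the other 5 KO libraries at 91.7 CPM or more. Mean CPM was 43.6 ± 4.56 in WT and 94.0 ± 15.6 in KO (SD, n = 6 each), a log2 fold change of 1.11 (SE 0.11, edgeR adjusted p = 9.47e-07). Dropping any 1 library gave 1.06 to 1.19. An unnamed row on the opposite strand overlaps Psmb10 and held 573 counts over all libraries, against 23155 for Psmb10.

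Psmb8 (MGP_C57BL6NJ_G0023969) and Psmb9 (MGP_C57BL6NJ_G0023967) lie close together on chromosome 17, at 35491856 to 35498447 and 35474849 to 35480625. Psmb8 libraries ran from 18.7 to 29.9 CPM in WT (median 21.2) and from 17.4 to 33.0 CPM in KO (median 25.5). Psmb9 libraries ran from 9.98 to 17.5 CPM in WT (median 14.0) and from 9.69 to 16.3 CPM in KO (median 13.2). Both groups overlapped along nearly their whole range, and KO4 was the highest and KO6 the lowest KO library for both genes. The log2 fold change was 0.09 for Psmb8 (SE 0.17, edgeR adjusted p = 0.687) and -0.08 for Psmb9 (SE 0.15, edgeR adjusted p = 0.699). Psmb9 overlaps Tap1 on the opposite strand, and Tap1, at 9078 counts over all libraries against 4429 for Psmb9, rose. Whether counting used strand is not given in the sources used here, so counts in shared stretches cannot be told apart.

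Psme1 and Psme2 encode the alternating subunits of the interferon-induced activator ring, which opens the core particle without ATP. Psme1 (MGP_C57BL6NJ_G0021752, chromosome 14, 52108833 to 52112239) ran from 120.4 to 148 CPM in WT (median 126.8) and from 46.2 to 67.5 CPM in KO (median 59.7). Its mean fell from 130.4 ± 10.1 to 57.8 ± 8.05 CPM, so WT was 2.26-fold higher, with a log2 fold change of -1.18 (SE 0.08, edgeR adjusted p = 1.09e-08). Unlike Psmb10, Psme1 was farthest from WT in KO3.

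Psme2 (MGP_C57BL6NJ_G0021754, chromosome 14, 52118263 to 52121858) ran from 54.6 to 70.9 CPM in WT (median 63.7) and from 36.8 to 44.6 CPM in KO (median 38.6). WT was 1.58-fold higher, a log2 fold change of -0.66 (SE 0.07, edgeR adjusted p = 1.22e-06). No KO library of either gene reached the lowest WT library. Each kept its call whichever library was dropped, with ranges of -1.22 to -1.12 for Psme1 and -0.70 to -0.63 for Psme2. Psme1 overlaps Emc9 on the opposite strand, which also fell (log2 fold change -0.37, edgeR adjusted p = 0.000188).

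**Figure D2:**
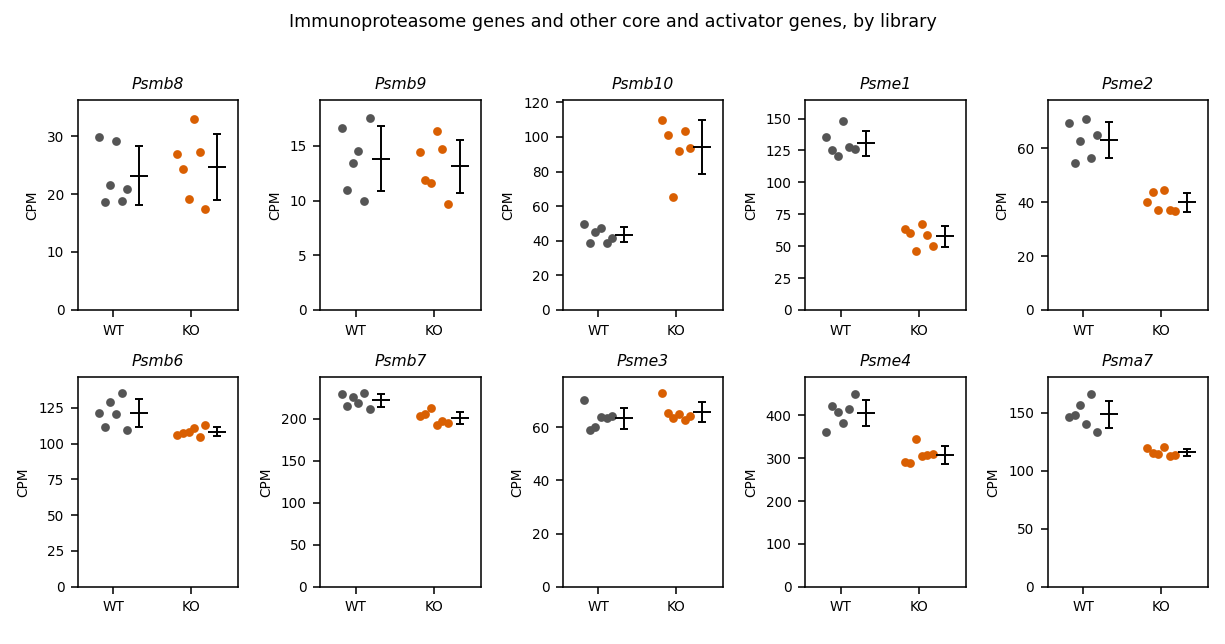
CPM of 10 genes in each of the 6 WT (grey) and 6 KO (orange) libraries, with the mean and SD beside them in black. Psmb10 is higher in every KO library, Psme1, Psme2, Psme4 and Psma7 are lower in every KO library, and Psmb8, Psmb9, Psmb6, Psmb7 and Psme3 overlap.

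White blood cells carry the immunoproteasome at rest, so the leukocyte markers are given beside these genes. They summed to 123 to 162 CPM in WT and 111 to 185 CPM in KO; of the 8 of 10 tested, 0 rose in edgeR (0 also at an unadjusted p under 0.05, in DESeq2 and in limma-voom) and Adgre1 and Csf1r fell, and Itgam had no count in any library. Csf1r lost its call without WT3, WT4, WT6, KO2, KO3 or KO6, at -0.25 to -0.20, and Cd52 passed as higher with the length trend removed (0.48). The fibroblast and endothelial sums, given above, were higher in every KO library, as Psmb10 was, and their part in the result was not tested.

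Levels between genes are compared as FPKM, the authors' deposited values scaled for gene length and sequencing depth. These FPKM did not follow the listed gene length for every gene. Psme4, with a listed length of 6491 bases, had 406 CPM in WT but 284 FPKM. Orders between genes therefore hold for the deposited FPKM. Within a library, the ratio of an inducible to its constitutive catalytic subunit needs no scaling between libraries. Psmb10 to Psmb7 ran from 0.265 to 0.343 in WT (median 0.312) and from 0.484 to 0.851 in KO (median 0.767). The mean log2 ratio of the counts was 1.24 higher in KO (SE 0.14), with a two-sided exact permutation p of 0.00216, the smallest that 6 against 6 allows, and 0.00433 adjusted over the 2 ratios tested. Psmb9 to Psmb6 ran from 0.0506 to 0.109 in WT and from 0.0586 to 0.101 in KO, a log2 difference of 0.09 (SE 0.20, exact permutation p = 0.660, adjusted p = 0.660). By the deposited FPKM, the inducible Psmb10 remained below Psmb7 in every library of both groups, and Psmb9 remained below Psmb6. In KO the order of Psmb10 and Psmb7 depends on the lengths used. Their listed lengths are 1270 and 2849 bases, and their KO means were 94.0 and 201 CPM.

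Among the inducible genes themselves, the median FPKM ratio of Psmb10 to Psmb8 was 2.14 in WT and 4.15 in KO, and that of Psmb10 to Psmb9 was 2.95 and 6.51. Psme1 to Psme2 ran from 1.43 to 1.70 in WT and from 0.920 to 1.17 in KO. The groups did not overlap for these 3 ratios. Psmb9 to Psmb8, at medians of 0.676 and 0.639, overlapped. These 4 ratios were not tested. The order of Psme1 and Psme2 depends on the lengths used. Their listed lengths are 1986 and 962 bases. Mean CPM were 130.4 and 63.1 in WT, and 57.8 and 39.9 in KO. By counts over these lengths Psme1 would lie below Psme2 in KO and near it in WT.

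**Figure D3:**
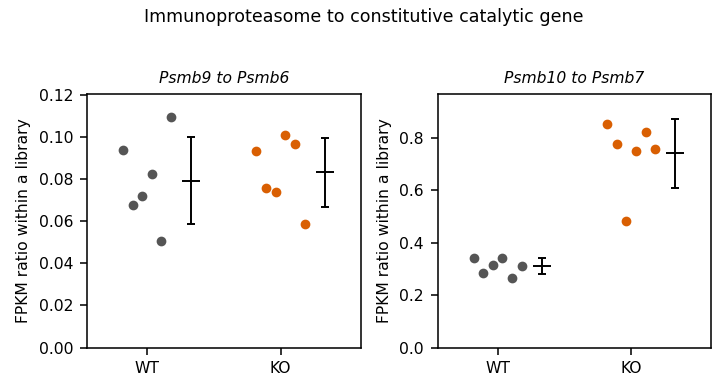
FPKM ratio of each inducible catalytic subunit to its constitutive counterpart within each library, with the mean and SD in black. For Psmb10 to Psmb7 all KO libraries (0.484 to 0.851) lie above all WT libraries (0.265 to 0.343), and for Psmb9 to Psmb6 the groups overlap.

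In the core particle, 7 of 13 subunits fell (53.8%) and none rose, with small steps. Of all rows tested, 25.5% fell and 25.6% rose. No core subunit was higher at an unadjusted p under 0.05 in edgeR, and DESeq2 and limma-voom each called 0 higher and 7 lower. The median log2 fold change was -0.14, from -0.36 (Psma7) to 0.09 (Psma5). In the alpha ring, 4 of 7 subunits fell, namely Psma1, Psma4, Psma6 and Psma7, as did 1 of 4 non-catalytic beta subunits (Psmb4) and both constitutive catalytic subunits measured. This pattern did not hold under the trend corrections: with length taken out 1 core subunit rose, 2 fell and the median was -0.066, and with length and GC taken out 3 rose, 1 fell and the median was -0.0096. Over all rows, 4310 of 17155 rose and 4177 fell with length taken out, and 3471 of 12517 rose and 3327 fell with both. The calls of Psma1, Psma4, Psma6, Psmb4 and Psmb6 were lost with the length trend removed, and that of Psmb7 was lost with both trends removed. Conversely, Psma5 passed as higher with the length trend removed (log2 fold change 0.16), and with both removed Psma2, Psma5 and Psmb2 passed as higher, at 0.20, 0.20 and 0.18.

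Psma7, an alpha ring subunit, was the exception in size. It ran from 133 to 166 CPM in WT (median 147) and from 112 to 120.3 CPM in KO (median 114), and WT was 1.28-fold higher. The groups did not overlap, and the log2 fold change was -0.36 (SE 0.05, edgeR adjusted p = 2.2e-05). It kept its call under both trend corrections, at -0.30 and -0.32.

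Psmb6, the caspase-like constitutive subunit, ran from 109.7 to 135 CPM in WT (median 121) and from 104 to 113 CPM in KO (median 108). Its log2 fold change was -0.16 (SE 0.05, edgeR adjusted p = 0.017), with overlap between the groups. Psmb7, the trypsin-like subunit, ran from 211 to 231 CPM in WT (median 222) and from 193 to 213 CPM in KO (median 201), a log2 fold change of -0.14 (SE 0.04, edgeR adjusted p = 0.0115). Psmb7 overlaps Nek6 on the opposite strand, which had a log2 fold change of 0.16 (edgeR adjusted p = 0.0539).

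Of the other core subunits that fell, Psma4 had a log2 fold change of -0.20, Psmb4 of -0.18, Psma6 of -0.15 and Psma1 of -0.14. The Psma6 groups did not overlap. Psma1 lost its call without WT5 (adjusted p = 0.0509) or without KO5 (adjusted p = 0.0601). Psmb4 overlaps an unnamed row on the opposite strand, which fell by 1.68 on the log2 scale.

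Psma5, an alpha ring subunit, ran from 62.6 to 72.4 CPM in WT (median 64.9) and from 64.8 to 77.3 CPM in KO (median 70.1). It did not pass at a log2 fold change of 0.09 (SE 0.05, edgeR adjusted p = 0.16). Psma2, Psma3, Psmb1, Psmb2 and Psmb3 also did not pass, with log2 fold changes from -0.10 (Psmb3) to 0.03 (Psma2).

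Genes of the regulatory particle went both ways. Of its 16 subunits measured, 4 rose (25%) and 8 fell (50%), against 25.6% and 25.5% of all rows. The share that rose was thus close to that of all rows. The median log2 fold change of the 16 was -0.18, and -0.13 with length and GC trends removed. In the base, 1 of 8 rose (Psmc4) and 5 fell (Psmc2, Psmc3, Psmc5, Psmc6 and Psmd4). In the lid, 3 of 8 rose (Psmd8, Psmd13 and Psmd14) and 3 fell (Psmd6, Psmd7 and Psmd12). All 12 calls held under both trend corrections and whichever library was dropped.

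The base unfolds and threads substrates with 6 different ATPases, Psmc1 to Psmc6, which sit side by side in a ring. Psmc2 ran from 118 to 127 CPM in WT (median 122) and from 79.9 to 89.4 CPM in KO (median 82.9), and WT was 1.47-fold higher (log2 fold change -0.56, SE 0.04, edgeR adjusted p = 1.74e-08). Psmc3 ran from 229 to 255 CPM in WT (median 241) and from 164 to 183 CPM in KO (median 173), with a log2 fold change of -0.47 (SE 0.05, edgeR adjusted p = 2.01e-07). Psmc5 ran from 94.8 to 111 CPM in WT (median 106) and from 76.3 to 81.5 CPM in KO (median 78.8), with a log2 fold change of -0.42 (SE 0.05, edgeR adjusted p = 1.24e-06). None of these 3 ATPases had a KO library within its WT range.

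Psmc6 fell by 0.31 on the log2 scale, and Psmc1 did not pass at -0.03. Psmc4 went the other way: its WT libraries ran from 62.2 to 71.5 CPM (median 68.7) and its KO libraries from 72.7 to 85.7 CPM (median 74.5). The groups were separate but close, with KO6 the highest, and the log2 fold change was 0.17 (SE 0.05, edgeR adjusted p = 0.0126). The median FPKM ratio of Psmc4 to Psmc3, both of the same ring, was 0.266 in WT and 0.412 in KO, and that of Psmc2 to Psmc1 was 0.414 and 0.287. Neither ratio overlapped between groups, and neither was tested. Psmc3 overlaps an unnamed row on the opposite strand, which rose (log2 fold change 0.36).

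Psmd4, the base's ubiquitin receptor, fell by 0.27 on the log2 scale (edgeR adjusted p = 0.00179), with KO6 at 125.0 CPM inside the WT range. Psmd1, the large scaffold of the base, did not pass (log2 fold change 0.04, edgeR adjusted p = 0.438). The other base scaffold is Psmd2, for which no row carries the name. An unnamed row that the table describes as that subunit, and that is not counted among the 42, lies on chromosome 16 at 18338305 to 18359798 and fell from 257 ± 9.07 to 228 ± 9.54 CPM (log2 fold change -0.17, edgeR adjusted p = 0.00413).

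Psmd8, a lid subunit, had the smallest p of the 41 genes. Its promoter, with the antioxidant core in capitals, is shown for comparison with those above, on GRCm38.p6.
Psmd8, chr7:29180624-29180923, minus strand: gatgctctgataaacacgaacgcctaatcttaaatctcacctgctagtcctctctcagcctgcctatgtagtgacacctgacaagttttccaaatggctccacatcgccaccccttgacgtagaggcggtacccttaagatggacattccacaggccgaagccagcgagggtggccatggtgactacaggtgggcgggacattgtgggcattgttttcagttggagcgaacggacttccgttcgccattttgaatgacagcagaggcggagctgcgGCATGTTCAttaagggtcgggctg
Psmd8 (MGP_C57BL6NJ_G0032424) ran from 82.8 to 90.7 CPM in WT (median 84.5) and from 138 to 152 CPM in KO (median 145). It rose 1.68-fold, with a log2 fold change of 0.75 (SE 0.05, edgeR adjusted p = 1.19e-09), and the gap between the groups was larger than the spread within either. Dropping any 1 library gave 0.73 to 0.77.

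Psmd14, the deubiquitinase that cleaves the ubiquitin chain off the substrate, ran from 37.8 to 42.0 CPM in WT (median 39.7) and from 47.9 to 57.6 CPM in KO (median 52.8). It rose 1.32-fold with no overlap (log2 fold change 0.40, SE 0.05, edgeR adjusted p = 1.03e-05). Psmd7, which forms the catalytic dimer with Psmd14, moved the other way, with a log2 fold change of -0.35 (SE 0.05, edgeR adjusted p = 3.6e-05). The median FPKM ratio of Psmd14 to Psmd7 was 0.662 in WT and 1.08 in KO, and that of Psmd8 to Psmd7 was 0.663 and 1.42, without overlap and not tested. In KO the order of Psmd14 and Psmd7 depends on the lengths used. Their listed lengths are 1541 and 1599 bases. Mean CPM were 39.8 and 144 in WT, and 52.5 and 113 in KO. By counts over these lengths Psmd14 would lie below Psmd7 in both groups.

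Psmd13, a lid scaffold subunit, ran from 71.7 to 93.5 CPM in WT (median 78.0) and from 91.9 to 102 CPM in KO (median 98.1). Its groups touched only through WT5, and the log2 fold change was 0.29 (SE 0.06, edgeR adjusted p = 0.000361). Psmd13 overlaps Sirt3 on the opposite strand, which fell (log2 fold change -0.48), and the limit on strand applies here too. Psmd12, another lid scaffold subunit, ran from 124 to 141 CPM in WT (median 127) and from 97.04 to 107 CPM in KO (median 102), a log2 fold change of -0.35 (SE 0.05, edgeR adjusted p = 7.5e-06). Psmd6 fell by 0.31 on the log2 scale, and Psmd3 and Psmd11 did not pass, at 0.02 and -0.09.

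**Figure D4:**
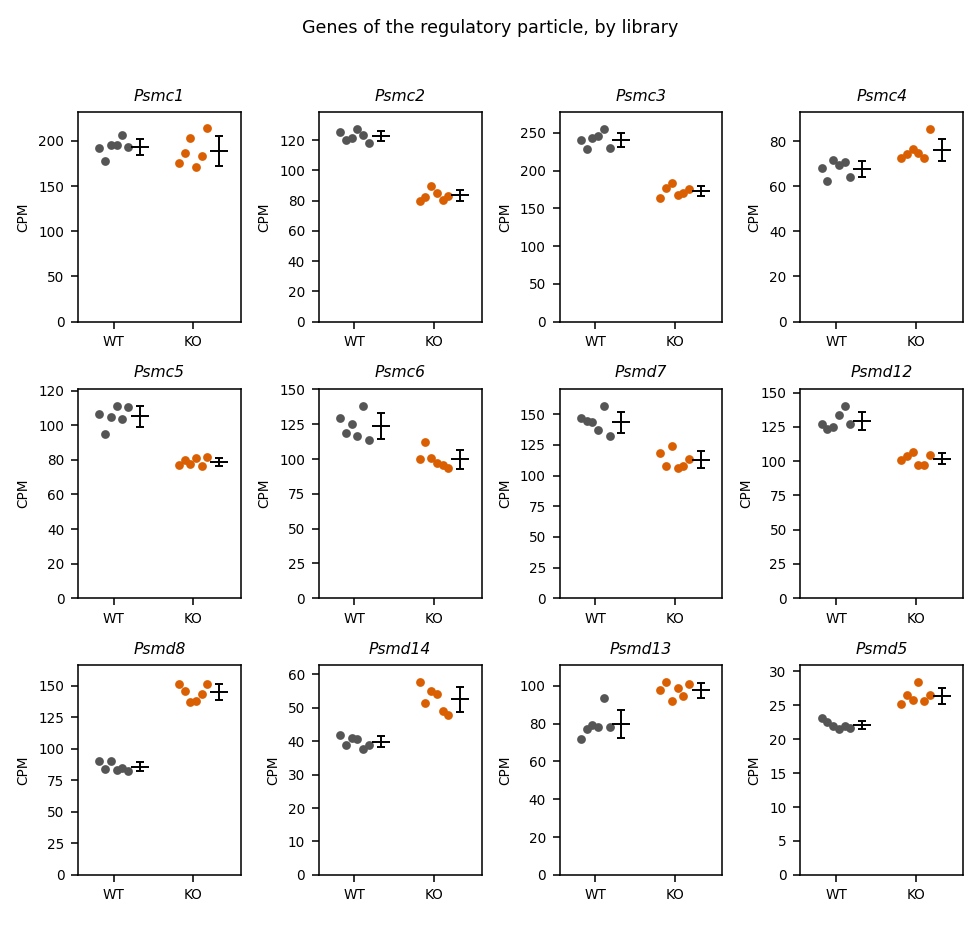
CPM of 12 genes of the regulatory particle and its assembly in each of the 6 WT (grey) and 6 KO (orange) libraries, with the mean and SD in black. Psmd8, Psmd14, Psmc4 and Psmd5 are higher in every KO library, Psmc2, Psmc3, Psmc5, Psmc6, Psmd7 and Psmd12 are lower in every KO library, and Psmc1 and Psmd13 overlap.

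The chaperones that build the base split as well. Psmd5 ran from 21.6 to 23.1 CPM in WT (median 21.9) and from 25.1 to 28.5 CPM in KO (median 26.1), with no overlap and a log2 fold change of 0.25 (SE 0.05, edgeR adjusted p = 0.000641). Psmd10, also known as gankyrin, fell (log2 fold change -0.31, SE 0.08, edgeR adjusted p = 0.00308), a call that was lost with length and GC trends removed (-0.11, adjusted p = 0.234). Psmd9 did not pass (log2 fold change 0.10, edgeR adjusted p = 0.16).

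Of the other activators, Psme4, a large cap that opens the core without ATP, ran from 362 to 449 CPM in WT (median 411) and from 289 to 346 CPM in KO (median 306). WT was 1.32-fold higher with no overlap (log2 fold change -0.40, SE 0.06, edgeR adjusted p = 2.94e-05), and KO3 was the KO library nearest to WT. Psme3, a nuclear activator related to Psme1 and Psme2, did not pass (log2 fold change 0.05, edgeR adjusted p = 0.469).

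The genes restricted to other tissues were at or near the floor. Psmb11, a thymus subunit, had no count in any of the 12 libraries, which allows up to 0.0956 to 0.126 CPM by library at a floor of 3 counts, counting error only. Psma8, a testis subunit, had 3 to 29 counts in a library and did not pass (log2 fold change -0.80, edgeR adjusted p = 0.0874), but passed without KO4 (-1.10, adjusted p = 0.0222). Psmc3ip had 61 to 97 counts in a library and did not pass (log2 fold change -0.10, edgeR adjusted p = 0.621).

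**Figure D5:**
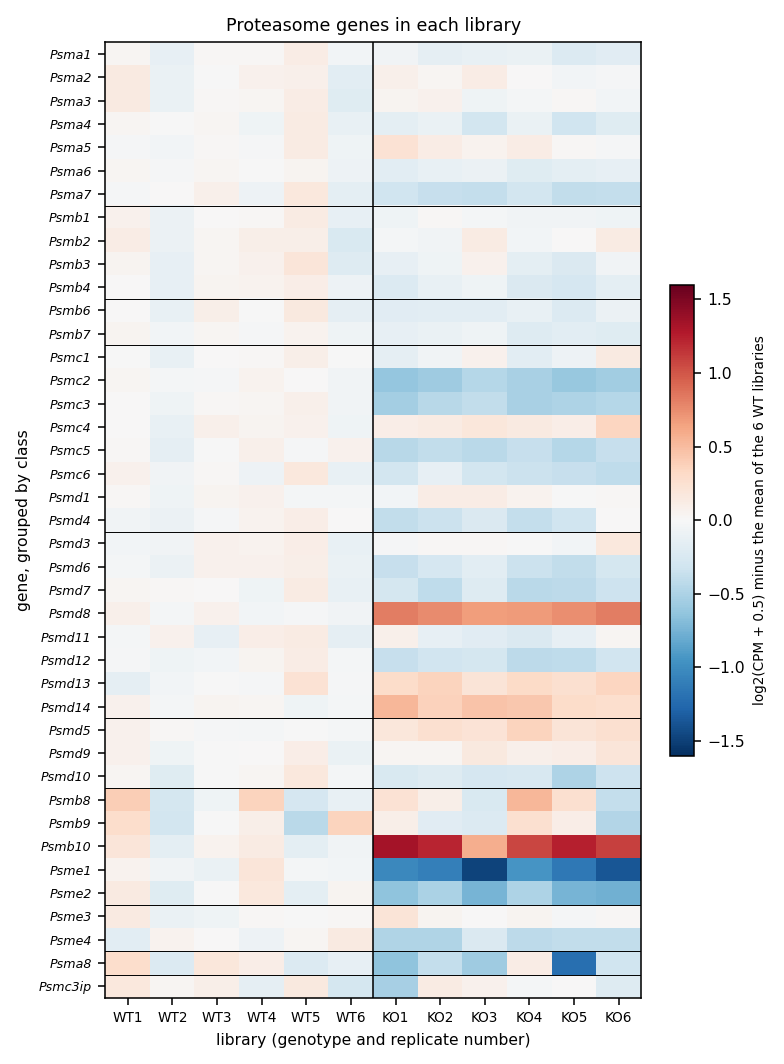
Log2(CPM + 0.5) of the 41 genes in each library minus the mean of the 6 WT libraries, with horizontal lines between classes. The KO columns are red for Psmb10 and Psmd8 and blue for Psme1, Psme2, Psmc2 and Psmc3, and the core rows are pale.

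By the deposited FPKM, the activator Psme4 ranked first of the 42 genes in both groups, at 284 ± 25.3 in WT and 215 ± 10.6 in KO (SD, n = 6). Psmc3 was next in WT at 255 ± 5.73, and the ranges of these 2 genes overlapped there. In KO the next was Psmb4 at 206 ± 7.23, and its range also overlapped that of Psme4, so the first rank was not separate from the next in either group. The listed gene length of Psme4 is 6491 bases, with 406 CPM in WT, and that of Psmc3 is 1819 bases, with 240 CPM. By counts over these lengths Psme4 would lie below Psmc3, so all ranks given here hold for the deposited FPKM only. Core subunits lay between 77.5 (Psmb3) and 233 (Psmb4) in WT, with a median of 118, and between 72.4 and 206 in KO, with a median of 115. Psme1 held rank 6 in WT (157 ± 11.5) and rank 27 in KO (69.9 ± 11.4), and Psme2 moved from rank 14 to rank 28. Psmb10 went from rank 34 (34.3 ± 3.44) to rank 23 (74.3 ± 13.5), and Psmd8 from rank 30 (58.0 ± 2.15) to rank 15 (97.9 ± 4.97). Psmb8, at 17.3 ± 3.70 and 18.5 ± 4.74, and Psmb9, at 12.2 ± 2.76 and 11.6 ± 2.44, stayed under every core subunit in both groups.

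Of 45 tested genes on 6 lists that build, feed or regulate the proteasome, 11 rose and 12 fell, shares close to the 25.6% and 25.5% of all rows, and the median log2 fold change was -0.02. Among the 9 assembly factors and subunits under other names, 0 rose in edgeR (0 also at an unadjusted p under 0.05, in DESeq2 and in limma-voom) and 4 fell. Psmg1 and Psmg2, a chaperone pair that starts the alpha ring, fell together: Psmg2 from 25.3 ± 1.48 to 15.0 ± 1.30 CPM (log2 fold change -0.75, edgeR adjusted p = 1.33e-07) and Psmg1 from 20.5 ± 1.54 to 12.3 ± 0.735 CPM (-0.73, edgeR adjusted p = 2e-07). AI314180 (Ecpas), the adaptor that clamps core and regulatory particle together, fell from 199 ± 4.11 to 137 ± 3.85 CPM (-0.54, edgeR adjusted p = 1.03e-08). The fourth was Adrm1, a ubiquitin receptor (-0.21). Pomp, the core maturation factor, did not pass (0.0046, edgeR adjusted p = 0.953), and neither did Psmf1, a proteasome inhibitor (-0.08, edgeR adjusted p = 0.471).

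Nfe2l1, the transcription factor that induces proteasome genes when proteasome activity is short, ran from 659 to 759 CPM in WT and from 512 to 638 CPM in KO. It fell (log2 fold change -0.33, SE 0.06, edgeR adjusted p = 0.000179), as did Ngly1, the deglycosylase that activates its product (-0.21, edgeR adjusted p = 0.00403). Nfe2l2 and Akirin2 did not pass, so 2 of 4 genes of transcriptional control fell. Of 12 deubiquitinases, ligases and shuttles, 3 rose and 6 fell, and 2 rose and 5 fell with length taken out. Ubr4, a large ubiquitin ligase, rose from 174.5 ± 7.08 to 225 ± 8.83 CPM (0.37, edgeR adjusted p = 3.3e-06). Of the 3 genes of the p97 segregase complex, Ufd1l (Ufd1) alone passed, and rose from 52.7 ± 1.80 to 67.0 ± 3.10 CPM (0.35, edgeR adjusted p = 7.27e-06). Among 4 ubiquitin and ubiquitin-activating enzyme genes, Uba1, the main activating enzyme, rose (0.24).

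Of 13 genes of the interferon axis and antigen processing, 6 rose and 0 fell in edgeR, where 25.6% of all rows rose and 25.5% fell. There were 0 lower also at an unadjusted p under 0.05, in DESeq2 and in limma-voom. Ifngr1, a chain of the interferon gamma receptor, rose from 87.0 ± 7.31 to 187 ± 21.8 CPM (log2 fold change 1.10, edgeR adjusted p = 6e-09). Irf1, a transcription factor that induces immunoproteasome genes, rose from 28.6 ± 4.50 to 38.5 ± 4.05 CPM (0.43, edgeR adjusted p = 0.00124). Tap1, the peptide transporter subunit that shares a promoter region with Psmb9, rose from 23.3 ± 4.89 to 31.4 ± 7.01 CPM (0.43, edgeR adjusted p = 0.0383), with overlap between the groups. The Tap1 call was lost without WT2, WT3, WT5, KO1, KO2 or KO4, at 0.33 to 0.43. It was also lost in the fit of every row with at least 1 count (0.434). Irf8, Nlrc5 and Stat2 also rose. Stat2 lost its call without WT2, WT3, WT5, KO1, KO2, KO4 or KO5, at 0.32 to 0.40, and in the fit of every row with at least 1 count (0.405). B2m did not pass, at 0.20.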

How the data were processed

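The deposited table held read counts and FPKM for each of 12 libraries (6 WT, 6 KO). Per the labels and methods, the authors aligned reads with HISAT2 2.0.5, counted them per gene with HTSeq, and derived FPKM from gene length and counts. The processing notes name mm10, but the identifiers and coordinates belong to the assembly of the C57BL/6NJ strain. The table's other value columns are the authors' own comparison (log2 fold change, p-value and adjusted p-value) and group means (normalised counts, a signal unit, and FPKM), and were not used. The deposited FPKM did not follow the listed gene length for every gene, so the authors' lengths may differ from it. Listed gene length was used for the length correction and to set beside the FPKM.

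Deposited counts were tested with edgeR 4.0.16 (R 4.3.3): filterByExpr kept 17155 rows, TMM normalisation, robust quasi-likelihood fit with genotype as the only term, with p-values adjusted by Benjamini-Hochberg across those rows. The standard error is the log2 fold change over the root of F. Within-library ratios added a prior count of 0.5 and were tested by exact permutation; Psmb8 to Psmb5 could not be run because no row is named Psmb5. Levels between genes use the deposited FPKM. The fit was also run on simulated counts with the same dispersion (spread between libraries) in every row. Spread between the real libraries was uneven, so that run does not show how the fit behaves there. Alternatives were DESeq2 1.42.0, limma 3.58.1 (voom), other size factors and filters, the replicate number as a block, each library left out, and trends on length and GC content removed.

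The members, gene lists and tests were chosen with earlier results of these data known. Members named with values per library are the immunoproteasome and constitutive catalytic genes and the 6 higher and 6 lower others with the smallest p; from the pathway lists, the 3 higher and 3 lower with the smallest p, plus Nfe2l1, Pomp, Psmf1, Tap1 and Irf1. Uba1, Nfe2l2, Akirin2, Ngly1, Adrm1, Irf8, Nlrc5, Stat2 and B2m were added after their values were seen. The 2590 unannotated rows stayed in library sizes. Some genes of the lists are not reported here. Promoters came from RefSeq.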

Additional observations from a re-analysis of the deposited data

Results flagged for a closer look

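In 60 groups of 6 libraries, 5 held a library far from the other 5 in CPM, where chance gives about 1 in 20 groups, or 3. Psmd13 was 93.5 CPM in WT5, with the next WT library at 79.2. Psmc4 was 85.7 CPM in KO6, with the next at 76.5. Psme4 was 346 CPM in KO3, with the next at 309.6. Ifngr1 was 72.8 CPM in WT2, with the next at 86.1. Nfe2l1 was 638 CPM in KO3, with the next at 558. The called direction of Psmd13, Psmc4 and Psme4 held with each library left out.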

How the results depend on the processing

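The counts of proteasome genes that rose or fell, the immunoproteasome calls and the core and regulatory medians kept their direction and size under other size factors, tests and filters, with unannotated rows left out, and when any 1 library was dropped. The exceptions came from the trend corrections: with length and GC trends removed 9 genes rose and 12 fell, the core median was -0.0096 and the regulatory median -0.13, and with the length trend alone the core median was -0.066. With each library left out, 6 genes rose in each fit and 18 to 20 fell. The immunoproteasome median, whose genes went apart, was -0.088 to -0.061 under the other settings but -0.16 (without WT5) to 0.0012 (without WT6) with each library left out, so neither its direction nor its size is settled. No gene that rose or fell changed sign under any alternative, while Psma2, Psma3, Psmb1, Psmb2, Psmb8, Psmb9, Psmc1, Psmc3ip and Psmd3, which did not pass, did so under at least 1. Psma8 also passed under limma-voom (-1.03). The correction on GC was fitted on 12517 rows, those with a GC value. The cause of these shifts was not tested.

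Replicate numbers did not pair the libraries: deviations of same-numbered libraries correlated at -0.18 to 0.04. With the replicate block no member changed its call, and 4124 rows rose and 4108 fell overall. For the log2 ratio of Psmb10 to Psmb7, KO minus WT, the paired value was 1.24 with an adjusted p of 0.0625, and an unadjusted exact p of 0.0312, the smallest that 6 pairs allow. Counts of Psma8 and Psmb11 are too few to show a small change.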
